A study of Mus musculus with 6 samples.

Results

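Endothelial cells line the blood vessels, the lymphatics and the chambers of the heart, and 38 genes that mark them were followed in RNA from whole mouse hearts. The gene names were given as a list of 40 markers of endothelium in general and of capillary, arterial, venous, endocardial and lymphatic endothelium. A name was taken as a member when it matched a gene symbol in the table of read counts, which holds 35976 genes, and 38 did. The names Hey2-dummy and Npr3-dummy matched no row. The members were sorted into 15 pan-endothelial, 12 capillary, 4 arterial, 4 venous or endocardial and 3 lymphatic genes, although several of them mark more than 1 kind of vessel.

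The sgRNA7 group was 3 libraries from hearts of wild-type mice given an adeno-associated virus, labelled AAV-MYL2-TadA8e-Sauri-U6-Camk2d sgRNA7. It carries the adenine base editor TadA8e-Sauri behind a MYL2 promoter, which is active in heart muscle, and a guide against the donor splice site of Camk2d intron 7. The control group was 3 libraries from wild-type hearts with no treatment, so virus, editor and edit all differ between the groups together. The labels give no age, sex, dose or interval, and do not say whether each library came from its own animal. All p-values here therefore rest on the spread among these libraries, which may be technical. The editor's promoter is not one of endothelial cells, and a whole-heart library mixes all cell types.

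Endothelial identity rests on ETS factors such as Erg and Fli1 and on SOX factors such as Sox18, which act with the receptors of the VEGF and angiopoietin ligands. In the heart the capillaries run beside almost every muscle cell and pass fatty acids, water and oxygen to them. Gpihbp1 holds lipoprotein lipase on the capillary wall, the fatty acid-binding proteins Fabp4 and Fabp5 carry fatty acids inside the cell, and the factors Meox2 and Tcf15 act together on fatty acid uptake genes of the heart endothelium.

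Total counts ranged from 17265842 to 23097998 in the sgRNA7 libraries and from 17062412 to 19743748 in the control libraries. Camk2d, the targeted gene, had 138, 130 and 164 CPM (read counts scaled to library size with TMM factors, which make libraries comparable) in sgRNA7 hearts, against 226, 220 and 224 CPM in control hearts. Atrial tissue was uneven: the atrial myosin light chain Myl7 had 542, 371 and 914 CPM in sgRNA7 hearts 1, 2 and 3, and 6.88, 332 and 0.209 CPM in controls 1, 2 and 3. Results are therefore also given with Myl7 as a covariate and without controls 1 and 3, which leaves 1 control. Neither setting makes atrial tissue equal. Another atrial gene, Bmp10, had 0, 0 and 0.112 CPM in sgRNA7 hearts 1, 2 and 3. It had 0.0598, 102 and 0.0522 CPM in controls 1, 2 and 3, so it did not follow Myl7. Heart muscle markers defined all 6 libraries, with the summed level of 12 cardiomyocyte genes at 82920 to 87450 CPM in sgRNA7 hearts and 97550 to 100900 CPM in control hearts.

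Endothelial RNA was present at similar levels in both groups, and a few capillary genes were lower in edited hearts. The summed level of the 38 members was 4573, 4923 and 4880 CPM in sgRNA7 hearts and 5135, 4842 and 5035 CPM in control hearts, so the groups overlapped. Of the 37 members with enough counts to test, 4 were lower in sgRNA7 hearts and 0 higher by edgeR's quasi-likelihood test at an adjusted p below 0.05, and the other 33 did not pass. Selp was the untested one. The 4 were Aqp1, Meox2, Apln and Fli1, of which the first 3 are capillary genes. Among all 14879 tested genes 4.74% were called lower and 4.93% higher, 9.66% in all, against 10.8% of the members in all, so the share of members called was near that of all genes. The median log2 change (sgRNA7 over control) was -0.05 over the 37 members and 0.0013 over all tested genes. In bulk RNA, fewer endothelial cells and less RNA per cell cannot be told apart.

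The number of members called depended on the libraries. By edgeR, 2 members were called without sgRNA7 replicate 1 (5.41%, against 9.84% of all genes tested in that fit), 8 without sgRNA7 replicate 2 (21.6% against 10.8%) and 1 without sgRNA7 replicate 3 (2.7% against 4.87%). The number was 1 without control 1 (2.7% against 5.07%), 5 without control 2 (13.5% against 8.27%) and 1 without control 3 (2.7% against 2.55%). With Myl7 as a covariate or without controls 1 and 3 it was 0. In those settings the share of all genes called also fell, to 0.847% and 0.518%.

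**Figure D1:**
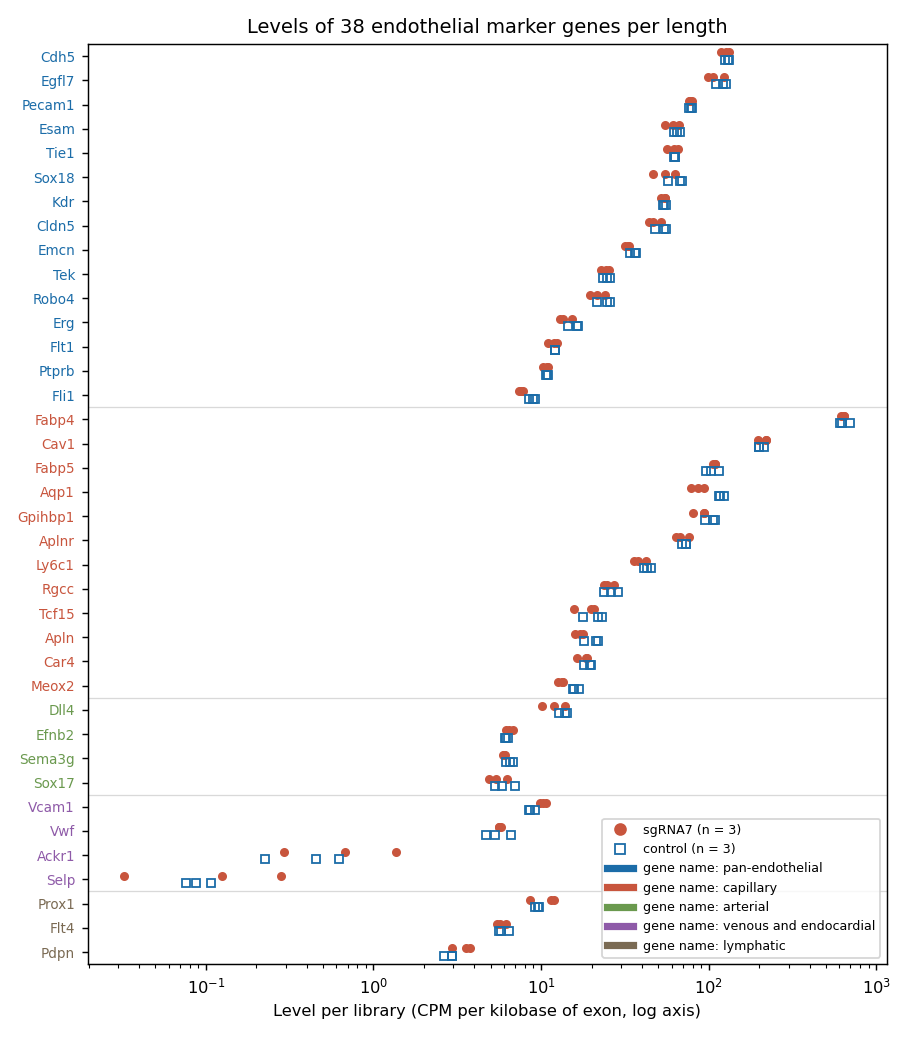
Level of each of the 38 marker genes in each library, in CPM per kilobase of exon on a log axis, with sgRNA7 libraries as filled circles above control libraries as open squares and gene names coloured by vessel type. Fabp4 was highest, at 633 in sgRNA7 and 642 in control hearts on average, and the venous genes Ackr1 and Selp were lowest; for most genes the circles and squares overlap.

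Per kilobase of exon, so that genes can be set against each other, the capillary and pan-endothelial genes were the abundant ones. Group means among the capillary genes ran from 13.2 CPM per kilobase for Meox2 in sgRNA7 hearts to 642 for Fabp4 in control hearts, and among the pan-endothelial genes from 7.57 for Fli1 in sgRNA7 hearts to 129 for Cdh5 in control hearts. Arterial genes lay between 5.52 and 13.6 and lymphatic genes between 2.85 and 10.7 CPM per kilobase. Of the venous genes, Vcam1 reached 10.3 in sgRNA7 hearts and 8.76 in control hearts, while Ackr1, a chemokine-binding protein of venules, had 0.777 and 0.433, and Selp, the adhesion molecule P-selectin, 0.145 and 0.0901. Neighbours in this order often did not differ beyond their spread, as with Gpihbp1 (104 ± 7.03) and Fabp5 (104 ± 9.45) in control hearts (SD, n = 3 each).

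Of the 15 pan-endothelial genes 1, Fli1, passed the threshold. The range at ±2 SE spanned the control level for 10 of them, among them the junction genes Cdh5 and Pecam1 and the receptors, and lay wholly below it for Fli1, Erg, Sox18, Cldn5 and Emcn. Cdh5, the VE-cadherin that joins endothelial cells to each other, had 480, 531 and 514 CPM in sgRNA7 hearts and 524, 502 and 534 CPM in control hearts. Pecam1, an adhesion molecule of endothelial junctions, had 295, 308 and 302 CPM in sgRNA7 hearts and 305, 307 and 299 CPM in control hearts. For both genes the groups overlapped, and the range at ±2 SE was 0.907 to 1.06 of the control level for Cdh5 and 0.928 to 1.07 for Pecam1, in edgeR's fit. Egfl7, a secreted protein of the vessel wall, had 161, 200 and 172 CPM in sgRNA7 hearts and 206, 180 and 199 CPM in control hearts, with the lowest value in sgRNA7 heart 1. It did not pass (adjusted p = 0.347 by edgeR). It was called lower in 1 of 16 alternatives, without sgRNA7 replicate 2 (log2 -0.23, adjusted p 0.0344 by edgeR).

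The receptors lay close to no change. For Kdr, the main VEGF receptor, the estimate was 0.994 of control with a range of 0.925 to 1.07. Flt1, a VEGF receptor that also acts as a decoy, had 0.976 with a range of 0.899 to 1.06. The angiopoietin receptor Tek had 0.981 with a range of 0.904 to 1.07, and its relative Tie1 0.979 with a range of 0.902 to 1.06. Ptprb, the phosphatase that restrains Tek, had 0.987 with a range of 0.918 to 1.06. These 5 ranges and those of Cdh5 and Pecam1 all span 1, and they stay between 0.899 and 1.07 of the control level.

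The transcription factors of this group were estimated lower, and 1 of them passed. Fli1, an ETS factor of endothelial and blood cells, had 32.1, 31.3 and 33.3 CPM in sgRNA7 hearts and 39.2, 36.0 and 38.2 CPM in control hearts. Every sgRNA7 library was below every control library, with a log2 change of -0.23 (SE 0.06) and an adjusted p of 0.0393 by edgeR. The call was lost without any 1 library other than control 2 (adjusted p 0.0588 to 0.158, with log2 changes of -0.25 to -0.20), with DESeq2's Wald test (0.0973), with upper-quartile scaling (0.0652) and with scaling to the pan-endothelial genes (0.282). The log2 change was -0.18 with Myl7 as a covariate (adjusted p 0.472) and -0.16 without controls 1 and 3 (0.583). Macrophages express Fli1 as well: 0 of 10 macrophage markers passed, all 10 were estimated below 0, and their summed level was 127 to 141 CPM in sgRNA7 hearts and 144 to 155 CPM in control hearts. Their part in the Fli1 result was not tested. Erg, the related ETS factor, had 51.1 ± 4.51 CPM in sgRNA7 hearts and 57.9 ± 4.29 CPM in control hearts (SD, n = 3), with an adjusted p of 0.150, a range of 0.796 to 0.978 of control and overlapping groups. Erg was called lower in 2 of 16 alternatives, with limma voom (0.0186) and without sgRNA7 replicate 2 (log2 -0.25, adjusted p 0.0272 by edgeR). Over the 16 its log2 change ran from -0.25 to -0.04. Sox18 had 75.0, 102 and 88.4 CPM in sgRNA7 hearts and 111, 92.3 and 110 CPM in control hearts, with sgRNA7 heart 2 above control 2 (adjusted p = 0.271 by edgeR; range 0.714 to 0.998).

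All 15 pan-endothelial estimates were below 0, with a median log2 change of -0.10. These estimates share their libraries and their scaling, so the common sign is 1 observation and not 15. Only 8 of 15 were below 0 when the libraries were scaled to these genes, which sets their mean change near 0. The number was 13 with Myl7 as a covariate, 12 with upper-quartile scaling and 12 without controls 1 and 3, and it was 11 to 15 with 1 library left out. The medians were -0.031 with Myl7, -0.074 with upper-quartile scaling and -0.045 without those controls. Of the 6 libraries, sgRNA7 heart 1 was the lowest for 9 of the 15 genes and control 1 the highest for 8. The remaining members were the tight-junction protein Cldn5, the junction protein Esam, the guidance receptor Robo4 and the sialomucin Emcn, with adjusted p between 0.206 and 0.401 by edgeR. Emcn had 46.6, 49.5 and 48.8 CPM in sgRNA7 hearts and 53.7, 54.4 and 50.1 CPM in control hearts, so its groups did not overlap, and its range was 0.844 to 0.994 of control. The range of Cldn5 was 0.815 to 0.999, with overlapping groups.

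**Figure D2:**
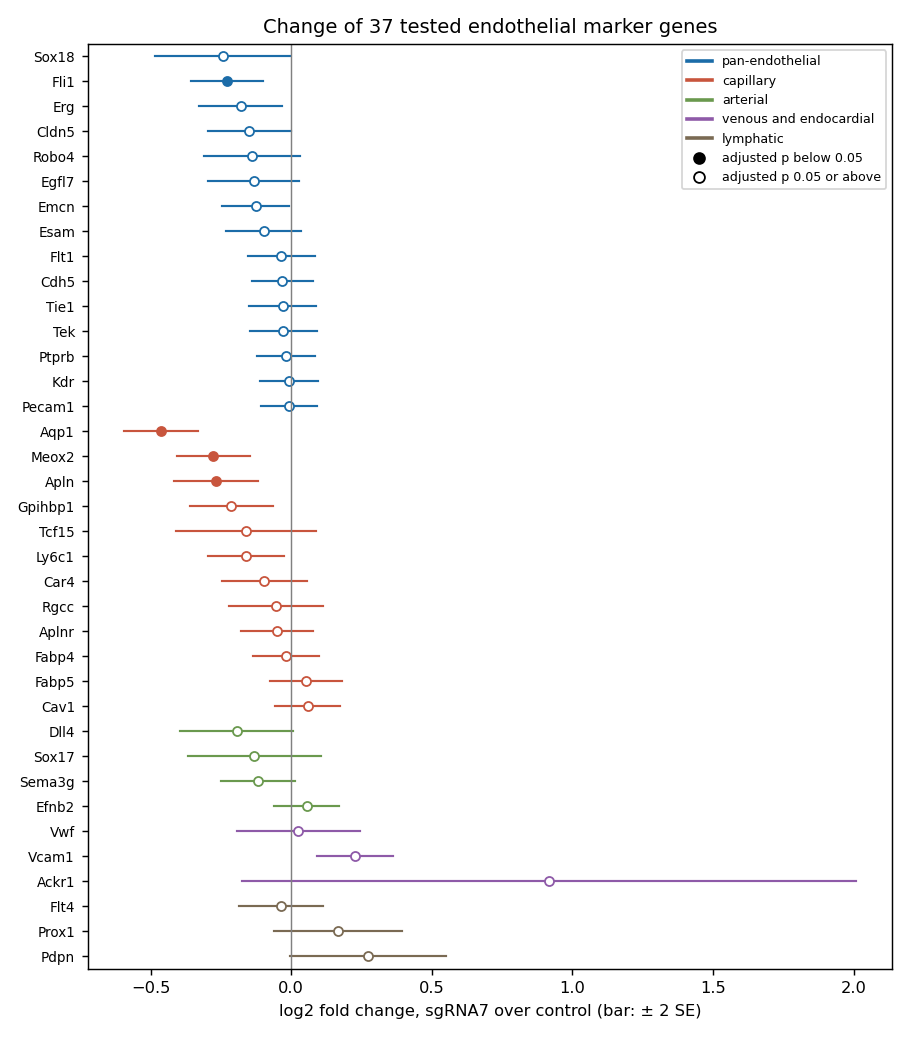
Estimated log2 fold change, sgRNA7 over control, of the 37 tested marker genes with bars of ±2 SE, grouped by vessel type; filled circles mark an adjusted p below 0.05. The 4 filled circles, Fli1, Aqp1, Meox2 and Apln, all lie left of 0, with Aqp1 farthest at -0.46, and the venous and lymphatic estimates lie at or right of 0 except Flt4.

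Aqp1 was the marker with the largest change among those called. It encodes the water channel aquaporin-1, abundant in heart capillaries and in red blood cells, and lies on chromosome 6 of mm10 from 55336299 to 55348555 on the plus strand. Its level was 216, 259 and 238 CPM in sgRNA7 hearts and 317, 324 and 341 CPM in control hearts. Every sgRNA7 library was below every control library. The log2 change was -0.46 (SE 0.07), or a fold of 0.726 (0.663 to 0.795 at ±2 SE), and the adjusted p was 0.00099 by edgeR. The call stood without any 1 of the 6 libraries (adjusted p 9.1e-05 to 0.0172) and in every other setting run except 2. With Myl7 as a covariate the log2 change was -0.42 (adjusted p 0.0614), and without controls 1 and 3 it was -0.45 (adjusted p 0.110), so the estimate stayed close to its value while the call was lost.

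Aqp1 was also lower relative to the steady endothelial genes. The ratio of its CPM to that of Cdh5 was 0.449, 0.488 and 0.464 in sgRNA7 hearts and 0.606, 0.646 and 0.639 in control hearts, and the groups did not overlap. With the libraries scaled to the 15 pan-endothelial genes in place of all genes, Aqp1 was again called, with a log2 change of -0.37 and an adjusted p of 0.00604 by edgeR. Of 7 red cell genes 0 passed, and their summed level was 790, 1232 and 1011 CPM in sgRNA7 hearts against 1125, 989 and 1279 CPM in control hearts. The part of red cells in the Aqp1 result was not tested.

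Meox2 and Apln were the other capillary genes called. Meox2, a homeobox factor of heart endothelium on chromosome 12 (37108546 to 37179528, plus strand, mm10), had 31.7, 31.4 and 29.7 CPM in sgRNA7 hearts and 39.3, 36.2 and 37.1 CPM in control hearts. The groups did not overlap, and the log2 change was -0.28 (SE 0.06; adjusted p = 0.0167 by edgeR). It was not called without sgRNA7 replicate 3 (adjusted p 0.0782), control 1 (0.079) or control 3 (0.0762). The log2 change was -0.24 with Myl7 as a covariate (adjusted p 0.302) and -0.23 without controls 1 and 3 (0.414), and the adjusted p with scaling to the pan-endothelial genes was 0.147 (log2 -0.18). Its partner Tcf15 had 21.1, 27.8 and 26.7 CPM in sgRNA7 hearts and 29.4, 23.9 and 30.9 CPM in control hearts, with overlapping groups (adjusted p = 0.486 by edgeR).

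Apln encodes apelin, a peptide that acts on the receptor Aplnr and is made by sprouting and capillary endothelium. It lies on chromosome X (48025146 to 48034852, minus strand, mm10). Its level was 53.5, 56.0 and 50.5 CPM in sgRNA7 hearts and 67.3, 56.5 and 68.9 CPM in control hearts. Control 2, the control with much Myl7, was just above sgRNA7 heart 2, and controls 1 and 3 were higher. The part of atrial tissue in the Apln result was not tested further. The log2 change was -0.27 (SE 0.08; adjusted p = 0.0400 by edgeR). It was -0.07 with Myl7 as a covariate (adjusted p 0.802) and -0.09 without controls 1 and 3 (adjusted p 0.775), and the call was also lost without sgRNA7 replicate 1 (0.0712), sgRNA7 replicate 3 (0.156), control 1 (0.172) or control 3 (0.232), and with upper-quartile scaling (0.068) or scaling to the pan-endothelial genes (0.194). The receptor Aplnr had 229, 240 and 272 CPM in sgRNA7 hearts and 259, 247 and 260 CPM in control hearts (adjusted p = 0.702 by edgeR).

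**Figure D3:**
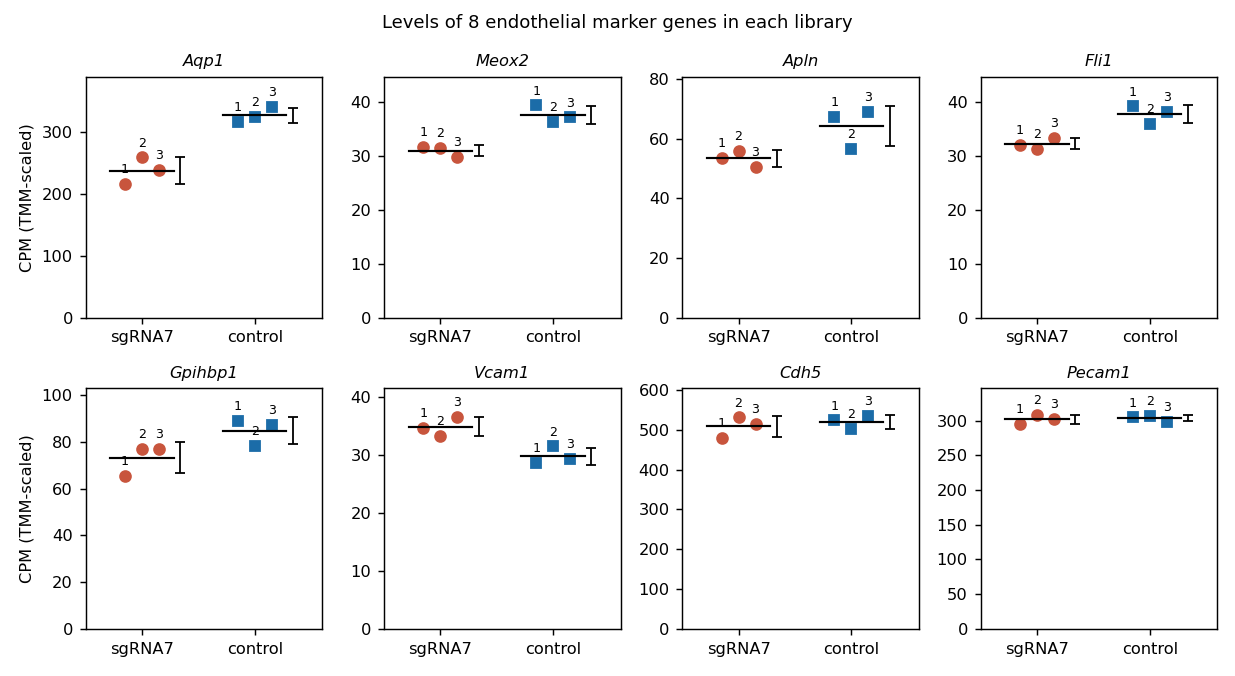
Level of 8 marker genes in each library, in TMM-scaled CPM from 0, with replicate numbers beside the points, group means as lines and ±1 SD as bars (n = 3 each). Aqp1, Meox2, Apln, Fli1 and Gpihbp1 are lower in all 3 sgRNA7 libraries than in any control, with Apln and Gpihbp1 nearly touching at control 2; Vcam1 is higher in all 3, and Cdh5 and Pecam1 overlap.

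The stretch of 250 bases before the annotated start is printed for the 3 capillary genes called lower, and for the nearly level Tie1 beside them. The ETS core was searched because Fli1 and Erg, which bind it, are themselves members. These genes were chosen with their values known, and a link to Fli1 or Erg was not tested. The sequences are RefSeq's for GRCm38.p6, the build also called mm10, read 5′ to 3′ on the gene's strand. Capitals mark a match to AGGAAG or CGGAAG, the forms of the ETS core that were searched, on either strand. AACAAT, a SOX core, would be marked likewise. GGAA with other letters around it was not searched. On one strand or the other it occurs unmarked in the Aqp1, Meox2, Apln and Tie1 stretches alike. Aqp1 is chr6:55336049-55336298 (plus), Meox2 is chr12:37108290-37108539 (plus), Apln is chrX:48034854-48035103 (minus) and Tie1 is chr4:118489850-118490099 (minus).
Aqp1: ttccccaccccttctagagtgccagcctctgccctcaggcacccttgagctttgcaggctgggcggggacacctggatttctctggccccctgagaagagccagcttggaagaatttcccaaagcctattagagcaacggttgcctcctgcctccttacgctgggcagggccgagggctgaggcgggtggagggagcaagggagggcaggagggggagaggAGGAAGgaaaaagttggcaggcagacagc
Meox2: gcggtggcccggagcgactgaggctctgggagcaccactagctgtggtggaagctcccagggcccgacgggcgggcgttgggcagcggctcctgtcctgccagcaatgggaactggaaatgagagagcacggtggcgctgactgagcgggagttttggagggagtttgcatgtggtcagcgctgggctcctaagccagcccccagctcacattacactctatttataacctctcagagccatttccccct
Apln: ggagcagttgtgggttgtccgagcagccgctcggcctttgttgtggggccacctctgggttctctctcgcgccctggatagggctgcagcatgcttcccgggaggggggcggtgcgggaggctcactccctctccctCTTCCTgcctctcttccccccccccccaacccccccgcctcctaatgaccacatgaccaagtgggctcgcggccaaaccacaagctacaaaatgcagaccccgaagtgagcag
Tie1: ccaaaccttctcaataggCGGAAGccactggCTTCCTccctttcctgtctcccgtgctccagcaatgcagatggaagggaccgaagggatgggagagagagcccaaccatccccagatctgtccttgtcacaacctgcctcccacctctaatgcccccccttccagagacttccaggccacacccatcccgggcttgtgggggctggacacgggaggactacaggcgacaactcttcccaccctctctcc
Aqp1 and Apln each hold 1 match to these ETS forms, beginning 29 and 113 bases before the start. Tie1 holds 2, and Meox2 holds no match to these forms. Sequences were at hand for 24 of the 38 members. In 14 of these 24 (58.3%) at least 1 start had AGGAAG or CGGAAG within 250 bases, against 42.5% of all 27025 genes in the RefSeq table. The SOX core was found in 3 of 24 (12.5%), Emcn, Erg and Tek, against 10.9% of all genes. The match is a description of letters, and no binding was measured.

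The other 9 capillary genes did not pass. Gpihbp1 came closest, at 65.6, 77.2 and 77.0 CPM in sgRNA7 hearts and 89.0, 78.3 and 87.3 CPM in control hearts. Every sgRNA7 value was below every control value, but control 2 was close to the nearest of them (log2 -0.21, SE 0.07; adjusted p = 0.0886 by edgeR). Gpihbp1 was called lower in 2 of 16 alternatives, with no filter (0.0139) and with limma voom (0.0352). No fit that left out 1 library called it, and over the 16 its log2 change ran from -0.27 to -0.10. Ly6c1, a surface protein of capillary endothelium, had 65.1 ± 5.47 CPM in sgRNA7 hearts and 72.7 ± 3.36 CPM in control hearts (SD, n = 3; adjusted p = 0.161 by edgeR). Of its exon bases 25.2% are shared with a gene on the opposite strand, Gm28068, and Ly6c1 has a near-identical neighbour, Ly6c2, so its counts are uncertain.

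Fabp4, Cav1 and Fabp5, the most abundant capillary genes per length when both groups were averaged, were level. In control hearts alone Aqp1 lay above Fabp5, at 119 against 104 CPM per kilobase. Fabp4 had 542, 566 and 559 CPM in sgRNA7 hearts and 613, 529 and 548 CPM in control hearts, with a range of 0.909 to 1.07 of control at ±2 SE. Adipocytes also express Fabp4, and the summed level of 8 adipocyte markers was 1.07, 25.4 and 6.14 CPM in sgRNA7 hearts against 0.419, 3.06 and 0.679 CPM in control hearts, with Retn at 0 in every library. Their part in Fabp4 was not tested. Cav1, which forms caveolae, had 572, 639 and 644 CPM in sgRNA7 hearts and 620, 577 and 583 CPM in control hearts. Fabp5 had 104, 102 and 104 CPM in sgRNA7 hearts and 109, 91.3 and 97.9 CPM in control hearts. The groups overlapped for all 3, and Fabp5 has processed copies elsewhere in the genome that may take or give reads. Car4, a carbonic anhydrase of the capillary surface, and Rgcc, a regulator of the cell cycle, had adjusted p of 0.484 and 0.753 by edgeR.

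None of the 4 arterial genes passed, and 0 of them had an unadjusted p under 0.05. Dll4, the Notch ligand of arteries and tip cells, had 35.1, 47.7 and 41.0 CPM in sgRNA7 hearts and 48.0, 44.0 and 49.2 CPM in control hearts. sgRNA7 heart 2 lay among the controls while the other sgRNA7 hearts were below them. Dll4 was called lower without that library (log2 -0.31, adjusted p 0.0185 by edgeR), the 1 call in 16 alternatives. Efnb2, the ephrin that marks arteries, had 67.1, 74.5 and 70.1 CPM in sgRNA7 hearts and 67.8, 66.7 and 69.2 CPM in control hearts, with a range of 0.958 to 1.13 of control. Sema3g, a secreted semaphorin of arteries, had 27.3, 27.99 and 27.6 CPM in sgRNA7 hearts and 31.3, 28.6 and 30.1 CPM in control hearts, without overlap (adjusted p = 0.298 by edgeR). The factor Sox17 had an adjusted p of 0.558.

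The venous and endocardial genes were few and mostly scarce. Vcam1, an adhesion molecule for white blood cells that other heart cells also make, had 34.7, 33.3 and 36.6 CPM in sgRNA7 hearts and 28.6, 31.4 and 29.2 CPM in control hearts. Every sgRNA7 library was above every control, and the log2 change of 0.23 (SE 0.07) missed the threshold by edgeR (adjusted p = 0.0518). It passed in 7 of 16 alternatives and missed the threshold in the rest. Those 7 included upper-quartile scaling (0.0315), scaling to the pan-endothelial genes (0.034) and no filter (0.0282). They also included a filter of 1 CPM in 3 libraries (0.0465), limma voom (0.00993), and leaving out sgRNA7 replicate 2 (0.0274) or control 2 (0.0487). The other fits that left out 1 library did not call Vcam1. The estimate was 0.14 with Myl7 as a covariate (adjusted p 0.591). Vwf, the clotting protein von Willebrand factor, had 50.6, 51.0 and 52.0 CPM in sgRNA7 hearts and 42.6, 60.1 and 48.0 CPM in control hearts, with control 2 the highest of all. Ackr1 had 1.58, 0.339 and 0.782 CPM in sgRNA7 hearts and 0.718, 0.527 and 0.261 CPM in control hearts, a level at which a range of 0.886 to 4.02 of control could not be narrowed at this depth.

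Lymphatic genes showed no call either. Prox1, the master factor of lymphatic identity, had 102, 72.8 and 96.4 CPM in sgRNA7 hearts and 78.3, 80.7 and 82.5 CPM in control hearts, so sgRNA7 heart 2 was the lowest of all 6. Prox1 was called higher without that library (log2 0.30, adjusted p 0.00232 by edgeR), against an adjusted p of 0.427 with it. That was its 1 call in 16 alternatives. Heart muscle also expresses Prox1. Flt4, the receptor of the lymphatic growth factor Vegfc, had 33.3, 36.1 and 31.9 CPM in sgRNA7 hearts and 33.7, 32.5 and 37.6 CPM in control hearts. Pdpn, a glycoprotein of lymphatic and mesothelial cells, had 6.91, 5.43 and 6.59 CPM in sgRNA7 hearts and 5.44, 5.43 and 4.86 CPM in control hearts (adjusted p = 0.246 by edgeR). Of 10 mesothelial markers 7 were called higher and 1 lower (70% and 10%, against 4.93% and 4.74% of all tested genes). Their summed level was 81.9 to 111 CPM in sgRNA7 hearts and 82.0 to 90.4 CPM in control hearts. Aldh1a2 alone gave 56.8, 55.0 and 49.4 CPM of these sums in sgRNA7 hearts and 61.7, 62.25 and 53.6 CPM in control hearts. By gene, 8 markers were estimated above 0 and 2, Aldh1a2 and Wt1, below, with a median log2 change of 2.00. The part of mesothelial cells in Pdpn was not tested.

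Set side by side, the subtypes differed in the sign of their medians and not in calls that can be tested against each other. Median log2 changes were -0.10 for the pan-endothelial, -0.13 for the capillary, -0.12 for the arterial, 0.23 for the venous or endocardial and 0.17 for the lymphatic genes, the last 2 over 3 tested genes each. The calls, all lower, were 1 of 15 (6.67%), 3 of 12 (25%), 0 of 4, 0 of 3 and 0 of 3 in the same order. Among all tested genes 4.74% were called lower. Of the 37 tested members, 7 were lower and 1 was higher without overlap of the groups, against 14.7% and 14.6% of all tested genes. With Myl7 as a covariate the medians were -0.031, -0.044, -0.019, 0.14 and 0.15.

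Other endothelial genes, from lists of genes that are no members, were called in both directions at about the share of all genes. Of 72 tested genes from the further pan-endothelial, endocardial, arterial, venous and lymphatic lists, 4 were higher and 4 lower, 5.56% each. Among all tested genes 4.93% were called higher and 4.74% lower. The median log2 change of the 72 was -0.01. Among further pan-endothelial genes and regulators 2 of 32 fell (6.25%) and 0 rose. Sox7, the close relative of Sox17 and Sox18, fell to 66.3, 76.2 and 67.4 CPM in sgRNA7 hearts, against 95.0, 91.0 and 96.9 CPM in control hearts (log2 -0.43, SE 0.06; adjusted p = 0.00124 by edgeR). The groups did not overlap, the call stood without any 1 library, and the log2 change was -0.36 with Myl7 as a covariate (adjusted p 0.0987) and -0.39 without controls 1 and 3 (0.160). Palmd, a paralemmin-related protein, had 77.0 ± 5.32 CPM in sgRNA7 hearts and 96.1 ± 7.82 CPM in control hearts (SD, n = 3; adjusted p = 0.0117 by edgeR), a call lost without sgRNA7 replicate 3 (0.0624) or control 3 (0.0654), with Myl7 as a covariate (log2 -0.40, adjusted p 0.0901), without controls 1 and 3 (-0.44, 0.0903) and with scaling to the pan-endothelial genes (-0.22, 0.117). The nitric oxide synthase Nos3, the TGF-beta co-receptor Eng and the flow-responsive factor Klf2 had adjusted p of 0.643, 0.720 and 0.552.

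Of 15 further arterial and Notch genes 2 rose (13.3%) and 0 fell, against 4.93% and 4.74% of all tested genes. Without overlap 7 were higher and 0 lower, against 14.6% and 14.7% of all tested genes. Their median log2 change was 0.25, with 10 of 15 estimates above 0, whereas the median of the 4 arterial members was -0.12. The sign of the arterial median therefore depended on which genes were listed. Unc5b, a netrin receptor, had 91.1 ± 5.32 CPM in sgRNA7 hearts and 75.2 ± 4.86 CPM in control hearts (SD, n = 3; adjusted p = 0.0171 by edgeR). Hey2, a Notch target that heart muscle also expresses, had 10.4, 11.8 and 9.44 CPM in sgRNA7 hearts and 8.55, 8.11 and 6.94 CPM in control hearts (adjusted p = 0.0378 by edgeR). Hey2 was called only without sgRNA7 replicate 3 (adjusted p 0.0461) among the 6 fits that leave out a library, with 0.0557 to 0.199 in the other 5. Unc5b was not called without sgRNA7 replicate 3 (0.0798), control 1 (0.0794) or control 2 (0.0646). Neither was called with Myl7 as a covariate (Hey2 log2 0.35, adjusted p 0.459; Unc5b 0.37, 0.0964) or without controls 1 and 3 (Hey2 0.38, 0.460; Unc5b 0.34, 0.208). The walls of arteries also hold smooth muscle, whose summed marker level was 2055, 2660 and 1795 CPM in sgRNA7 hearts and 2178, 2183 and 2132 CPM in control hearts. Des alone gave 963, 1135 and 1007 CPM of these sums in sgRNA7 hearts and 1159, 1071 and 1133 CPM in control hearts. Of 7 tested smooth muscle markers 5 were estimated above 0 and 2 below, with a median log2 change of 0.24 and 0 called. Cnn1 and Lmod1 were higher without overlap, and Smtn was lower without overlap. The part of smooth muscle in these values was not tested.

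Among 10 endocardial genes 1 fell and 0 rose, with a median log2 change of 0.23. For these short lists the shares of all tested genes were 4.74% lower and 4.93% higher. Tmem100, a target of BMP signalling in endothelium, had 22.7, 19.3 and 19.8 CPM in sgRNA7 hearts and 39.4, 43.1 and 43.2 CPM in control hearts (log2 -1.02, SE 0.08; adjusted p = 1.56e-05 by edgeR), and it was called in all 16 alternatives. Npr3, the natriuretic peptide clearance receptor of the endocardium, had 30.2, 24.3 and 26.1 CPM in sgRNA7 hearts and 18.0, 49.1 and 17.2 CPM in control hearts, with control 2 far above the other controls. Of 7 venous genes the factor Nr2f2 rose (33.3 ± 3.05 CPM in sgRNA7 hearts and 26.1 ± 2.24 CPM in control hearts; adjusted p = 0.0182) and the semaphorin and VEGF receptor Nrp2 fell (102 ± 2.49 CPM in sgRNA7 hearts and 117 ± 5.31 CPM in control hearts; adjusted p = 0.0407; SD, n = 3, edgeR). Nr2f2 also marks atrial muscle, and with Myl7 as a covariate its log2 change was 0.18 (adjusted p 0.537), against 0.35 without it. That of Nrp2 was -0.13 (0.567), against -0.19, and -0.09 with scaling to the pan-endothelial genes (0.414). Both calls were lost without sgRNA7 replicate 3 (0.101 and 0.127), control 1 (0.0699 and 0.161) or control 3 (0.127 and 0.187), and that of Nrp2 without sgRNA7 replicate 2 (0.0629). Of 8 lymphatic genes Reln, a secreted glycoprotein, rose to 8.44, 7.07 and 7.93 CPM in sgRNA7 hearts, against 4.66, 4.84 and 4.91 CPM in control hearts (log2 0.70, adjusted p = 0.00396 by edgeR). The log2 change was 0.69 with Myl7 as a covariate (adjusted p 0.134) and 0.69 without controls 1 and 3 (0.182). The lymphatic chemokine gene Ccl21b was at 0 in every library.

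The ligands and the lipid genes that work with the members gave few calls. The 14 tested ligands were of the VEGF, angiopoietin, semaphorin and slit families, with Angptl4, Cxcl12 and Efna1. Of these 0 passed by edgeR and 2 had an unadjusted p under 0.05. Of the apelin family, Apela had too few counts to test, and the member Apln was called lower, as given above. Vegfa had 397, 392 and 419 CPM in sgRNA7 hearts and 434, 387 and 438 CPM in control hearts, with overlap. Angpt1, the ligand of Tek, had 13.3, 11.5 and 14.6 CPM in sgRNA7 hearts and 14.6, 54.5 and 18.6 CPM in control hearts, with control 2 alone high. Of 14 genes of fatty acid transport and storage 2 fell and 0 rose: Dgat2, which makes triglyceride (110 ± 4.75 CPM in sgRNA7 hearts and 153 ± 7.63 CPM in control hearts; adjusted p = 0.000371), and the nuclear receptor Ppard (27.9 ± 2.67 CPM in sgRNA7 hearts and 34.1 ± 1.57 CPM in control hearts; adjusted p = 0.0281; SD, n = 3, edgeR). The 2 that fell were 14.3% of this list, against 4.74% of all tested genes. Dgat2 was called in all 16 alternatives. Ppard was not called without sgRNA7 replicate 1 (0.080), sgRNA7 replicate 3 (0.110), control 1 (0.0821) or control 3 (0.159), with Myl7 as a covariate (log2 -0.21, adjusted p 0.474) or without controls 1 and 3 (-0.24, 0.499), against -0.30 with all libraries. Lpl, the lipase that Gpihbp1 carries, had 1313, 1105 and 1304 CPM in sgRNA7 hearts and 1453, 1392 and 1450 CPM in control hearts, without overlap (log2 -0.21, SE 0.06; adjusted p = 0.0568 by edgeR). Heart muscle also expresses Lpl, Dgat2 and Ppard. In the same libraries 6 of 12 cardiomyocyte markers fell (50%, against 4.74% of all tested genes). The part of muscle in these values was not tested.

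The cells that sit against the endothelium were described by their marker lists. Beside their counts, 4.74% of all tested genes were called lower and 4.93% higher. Of 11 pericyte markers 1 fell and 0 rose, Vtn, with 26.0 ± 0.963 CPM in sgRNA7 hearts and 34.02 ± 2.87 CPM in control hearts (SD, n = 3; adjusted p = 0.00581 by edgeR). The call stood without any 1 library, but was lost with Myl7 as a covariate (log2 -0.34, adjusted p 0.193) and without controls 1 and 3 (-0.30, 0.289), against -0.39 with all libraries. The summed pericyte level was 1596, 1730 and 1526 CPM in sgRNA7 hearts and 1730, 1700 and 1750 CPM in control hearts. Of 10 fibroblast markers 1 rose and 0 fell, and their sum was 7855 to 9909 CPM in sgRNA7 hearts and 6698 to 8366 CPM in control hearts.

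**Figure D4:**
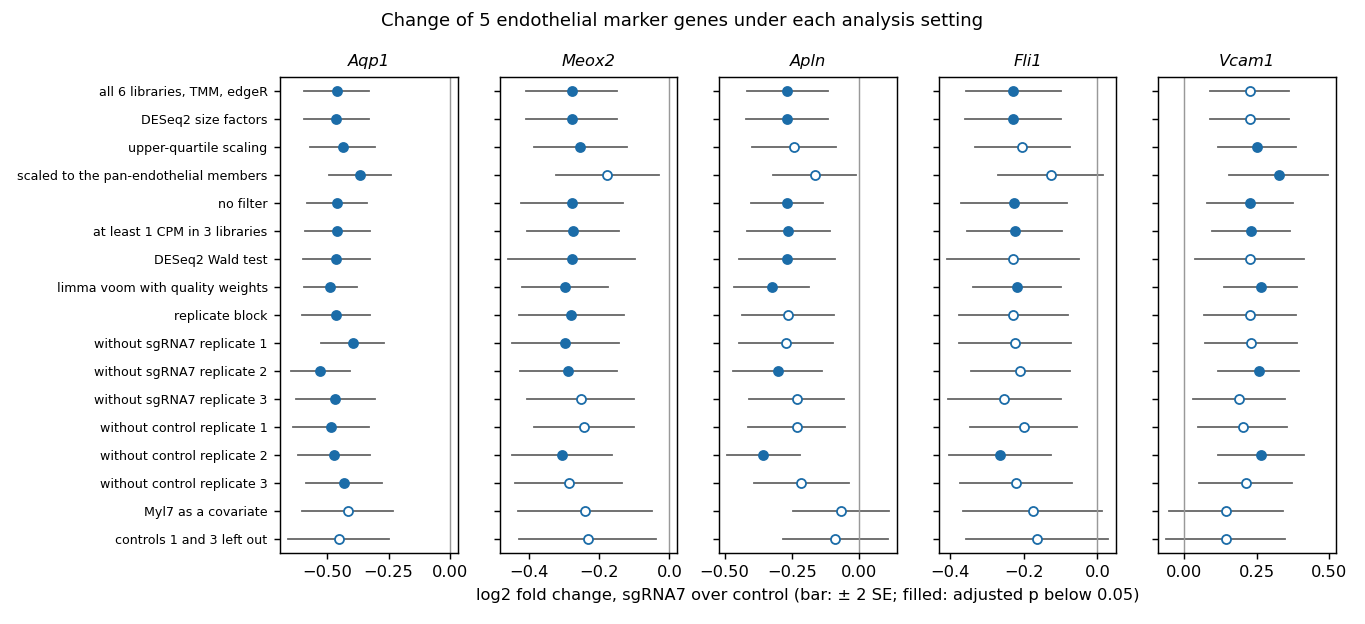
Estimated log2 fold change, sgRNA7 over control, of 5 marker genes under each of the 17 analysis settings, with bars of ±2 SE and filled circles for an adjusted p below 0.05. Aqp1 is filled in all settings but the last 2, where its estimates are -0.42 and -0.45; Apln moves to -0.07 and -0.09 there, and Vcam1 stays right of 0 and changes call.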

How the data were processed

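RNA from whole mouse hearts was sequenced in 6 libraries, 3 per group. The authors deposited 1 table of raw read counts per gene, named by symbol, with the exon length of each gene. The submitters' processing notes name mm10 and the tools featureCounts, STAR, cutadapt and FastQC. Their versions, the strand setting and the treatment of multi-mapping reads were not given in the sources used. Each library had 2 columns, between which 0 genes differed, and the first was used. No pair of libraries within a group matched within sampling noise (chi-square per degree of freedom 3.95 to 14.4).

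Genes were kept by edgeR's filterByExpr (14879), scaled by TMM factors and compared with edgeR's quasi-likelihood test (edgeR 4.0.16, R 4.3.3; robust; group only), with Benjamini-Hochberg adjustment over all tested genes and a threshold of 0.05. The SE is the log2 estimate (unshrunken) divided by the root of its F statistic. The steps were tested on simulated counts with changes of 1.5, 2 and 4-fold. At 1.5-fold 70.1% of 67 changed genes were called, and 26 of 14516 unchanged genes were called. Smaller changes, such as those of the called members, were not simulated, so the power to call them is not known. Alternatives used other scaling, filters, DESeq2 1.42.0, limma 3.58.1 (voom with quality weights), a replicate block, left-out libraries and Myl7 as a covariate. The members, the gene lists and the alternatives were chosen with earlier results of these data known. Values were given per library for members past the threshold and for the 3 most abundant per length of each subtype, and up to 4 genes past the threshold were named from each endothelial, ligand or lipid list outside the members; other named genes were chosen after their values were seen. Lists of other cell types are described by counts and sums. Depth limits genes under about 1 CPM, such as Ackr1.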

Additional observations from a re-analysis of the deposited data

How the results depend on the processing

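Leaving out 1 library at a time gave 0 to 2 members called higher and 1 to 6 called lower, with 188 to 921 genes called higher and 198 to 756 called lower, and medians of -0.11 to -0.03 for all members, -0.14 to -0.07 for pan-endothelial, -0.17 to -0.037 for capillary, -0.19 to -0.05 for arterial, 0.18 to 0.26 for venous or endocardial and 0.071 to 0.30 for lymphatic genes. Upper-quartile scaling gave 1 member higher and 2 lower. Scaling to the pan-endothelial genes gave 1 and 1, with 1247 genes higher and 201 lower; it moved the median of all genes to 0.10, and the medians of all, pan-endothelial, capillary, arterial and venous or endocardial members to 0.046, -0.0015, -0.030, -0.024 and 0.33, the second by construction. With no filter, 1290 genes and 1 member were higher and 5 members lower, and the venous or endocardial median was 0.45. With a filter of 1 CPM in 3 libraries 1 member was higher and 4 lower, and that median was 0.13. With limma voom 1 member was higher and 6 lower (18.9% of members called, against 16.1% of genes), and 1214 genes were higher and 1184 lower. With Myl7 as a covariate 44 genes were higher and 82 lower, 0 members were lower, and the arterial and venous or endocardial medians were -0.019 and 0.14. Without controls 1 and 3, 29 genes were higher and 53 lower, 0 members were lower, and the arterial median was 0.0017; the 1 control is then assumed to vary like the edited hearts. The causes were not tested.

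Replicate numbers did not pair the libraries: same-numbered deviations from the group means correlated at 0.0039, -0.11 and -0.08. With the replicate number as a block 457 genes and 2 members, Aqp1 and Meox2, were lower; Fli1 (log2 -0.23, adjusted p 0.0871) and Apln (-0.26, 0.0855) were not called. DESeq2's Wald test called 3 members lower.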
